A study of Mus musculus with 3 samples.

Results

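Iron hormone and iron handling genes were followed in mouse liver through 10 genes: Hamp and Hamp2, which encode hepcidin and its close copy; Bmp6, Tfr2, Id1 and Smad7, which belong to the control of hepcidin or respond to the same signal; and Tfrc, Slc40a1, Fth1 and Ftl1, which take up, release and store iron. They were picked by name from the 16390 named genes of the table. Each of the 10 had 1 row, and every row had a value on all 3 arrays. Hamp is written Hamp1 and Tfr2 is written Trfr2 in the platform annotation. Low hepcidin ratios in these same arrays led to the choice, so the values below describe the genes and were not tested.

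Liver RNA of female C57BL/6 mice was hybridised to 3 arrays of 2 channels. Cy5 carried RNA of untreated wild-type liver on every array. Cy3 carried wild-type liver after LPS/GalN, untreated TMX-/- liver, or TMX-/- liver after LPS/GalN. TMX-/- mice, called TMX-null here, lack TMX, a membrane protein of the thioredoxin family that resides in the endoplasmic reticulum. Treated mice were given 3 ng lipopolysaccharide (LPS) and 10 mg D-(+)-galactosamine (GalN) into the peritoneum, 24 h before the liver was taken. LPS is a bacterial cell wall component, and GalN makes hepatocytes sensitive to it. Ages, the deleted part of the gene, and the number of mice behind each channel are not given in any label used here.

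Hepcidin is a peptide hormone made by hepatocytes. It binds ferroportin, the only known cellular iron exporter, and causes its loss from the cell surface, so that less iron enters plasma. BMP6, made largely by sinusoidal endothelial cells, activates SMAD proteins in hepatocytes and thereby Hamp transcription, while interleukin 6 acts on the same gene through STAT3. Ferritin and transferrin receptor 1 are set mainly by iron regulatory proteins, which act on messenger RNA. Protein was not measured, and the ratios of these messages need not give it.

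The values are log2 ratios, read as the named liver over untreated wild-type liver and centred on the median of 10179 genes measured on all 3 arrays. That direction is likely but not stated in the labels: it rests on Tmx1, the gene of TMX, which stood at -2.96 in untreated and -3.88 in treated TMX-null liver and at 0.59 in treated wild-type liver. With the opposite numerator every direction turns. The reference carried the same dye on every array, with no swap. A dye effect on a gene, or an unusual reference, would shift its ratios alike on all 3 arrays. That cannot be told apart here from a difference shared by the 3 livers. Each group was 1 array, so the spread between mice is unknown. The only error at hand comes from 81 genes with 2 rows: for a single row the SD came to 0.42 on the array of treated wild-type liver, 0.42 on that of untreated TMX-null liver and 0.76 on that of treated TMX-null liver. Values with ± carry that SD. The arrays also differed in spread, with an SD over genes of 0.48, 0.40 and 1.04, so ratios on the treated TMX-null array were wider for genes at large. On the untreated TMX-null array the SD of a single row was no smaller than that over genes, and the rows of 1 gene differed by 3.31. The row error is thus a rough guide and was not shown to be technical error.

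The stretch before the start of both hepcidin genes is shown because the genes moved apart on 1 of the arrays. The 250 bases before each start were taken from RefSeq (GRCm38.p6, minus strand, chr7:30944030-30944279 for Hamp and chr7:30924182-30924431 for Hamp2). Capitals mark GGCGCC, the core of a BMP response element, and TTCNNNGAA, the element bound by STAT proteins.

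Hamp: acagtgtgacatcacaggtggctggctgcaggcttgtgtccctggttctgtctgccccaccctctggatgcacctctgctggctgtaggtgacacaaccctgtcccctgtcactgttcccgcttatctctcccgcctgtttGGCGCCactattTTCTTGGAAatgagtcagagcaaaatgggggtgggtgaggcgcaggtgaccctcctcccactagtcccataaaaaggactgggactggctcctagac

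Hamp2: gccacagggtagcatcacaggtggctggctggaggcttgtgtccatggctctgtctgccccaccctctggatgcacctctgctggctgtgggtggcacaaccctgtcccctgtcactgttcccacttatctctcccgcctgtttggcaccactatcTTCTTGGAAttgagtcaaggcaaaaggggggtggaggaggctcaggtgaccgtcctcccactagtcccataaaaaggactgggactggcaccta

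Over 247 aligned bases the stretches shared 227 (91.9%). Both held TTCTTGGAA, which began 97 bases before the start in Hamp and 94 in Hamp2. GGCGCC stood 109 bases before the start in Hamp and was absent from the Hamp2 stretch, where the aligned letters were GGCACC. The change is G145A, with positions counted from 1 at the 5′ end of the Hamp sequence and the base of Hamp given first. It is 1 of 20 substitutions between the stretches, and the others lay outside the marked motifs. Whether any of them bears on the ratios was not tested. GGCGCC, TTCNNNGAA and the E-box CACGTG each read the same on both strands and were searched in 32851 promoters of the same length, of which 9.59%, 7.02% and 6.02% held them. Both GGCGCC and TTCNNNGAA, as in Hamp, occurred in 121 of these promoters (0.368%). Of the other genes, Tfrc held GGCGCC 89 bases before 1 of its 2 starts, and Bmp6 held CACGTG 127 bases before its start. No match was found for Tfr2, Fth1 and Ftl1, and Id1, Smad7 and Slc40a1 are not in the promoter table. A match is a run of letters and does not show binding.

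Both hepcidin genes were lower than in untreated wild-type liver on every array, most of all after treatment of the wild type. Hamp stood at -3.99 ± 0.42 there, at -1.27 ± 0.42 in untreated TMX-null liver and at -0.88 ± 0.76 in treated TMX-null liver. Hamp2 stood at -3.80 ± 0.42, -1.02 ± 0.42 and -3.23 ± 0.76 on the same arrays. All 6 ratios were below 0, and Hamp alone came within 2-fold of the reference, in treated TMX-null liver. In fold terms Hamp was 15.9-fold lower in treated wild-type, 2.42-fold lower in untreated TMX-null and 1.84-fold lower in treated TMX-null liver, against 14.0-fold, 2.03-fold and 9.37-fold for Hamp2.

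Among the 10179 genes, Hamp and Hamp2 had the lowest and the second lowest ratio in treated wild-type liver. They ranked 27 and 80 from the lowest in untreated TMX-null liver. On the treated TMX-null array Hamp2 ranked 54 from the lowest, while Hamp ranked 1612 and lay inside the bulk of genes.

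**Figure D1:**
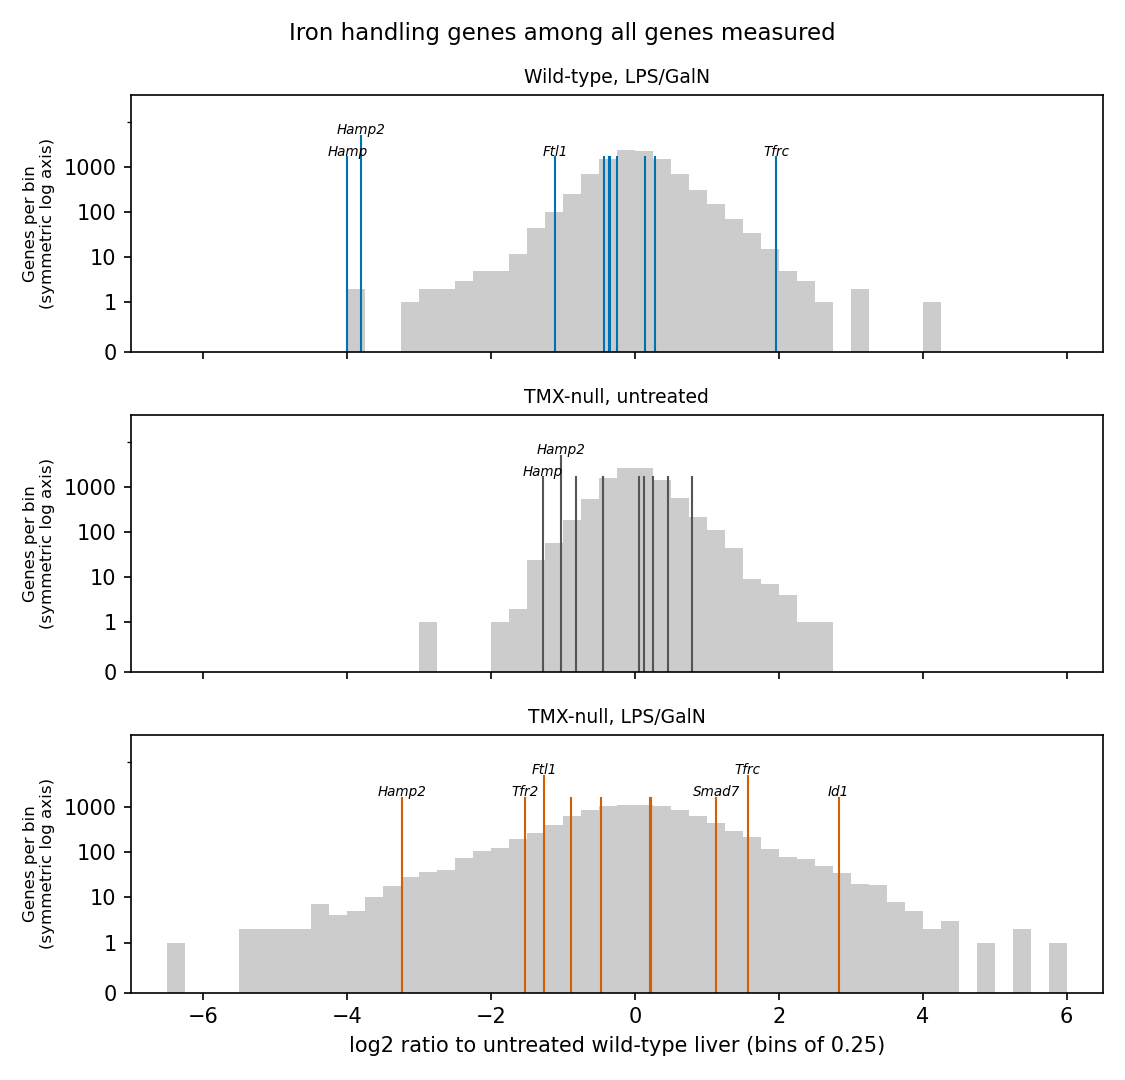
Number of genes per bin of 0.25 in the log2 ratio to untreated wild-type liver, on a symmetric log axis, for the 10179 genes on each array; vertical lines are the 10 iron genes, named where they lie at least 2-fold from the reference. Hamp and Hamp2 stand alone at the low end in treated wild-type liver, and Hamp2, at -3.23, is the lowest of the 10 in treated TMX-null liver.

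The copies kept together on the first pair of arrays and parted in treated TMX-null liver. Hamp minus Hamp2 was -0.19 in treated wild-type liver and -0.26 in untreated TMX-null liver, each smaller than the SD of the difference between 2 rows of a gene (0.60 on both arrays). In treated TMX-null liver Hamp lay 2.35 above Hamp2, where that SD was 1.08, and 3 of 81 genes with 2 rows had rows as far apart. Whether each probe measures its own copy alone was not tested, and the levels behind the ratios cannot be compared between probes.

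Differences between arrays remove the reference, provided that all of them carried 1 preparation of its RNA. Treated wild-type against untreated TMX-null liver gave -2.72 for Hamp and -2.79 for Hamp2, ranks 3 and 2 from the lowest of all genes, although genotype differs in this comparison as well as treatment. So the low hepcidin ratios of treated wild-type liver were also present against a second untreated liver, at 6.59-fold and 6.89-fold. These differences share the treated array with the ratios above and are no independent measurement.

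Treated against untreated TMX-null liver gave 0.39 for Hamp (SD of a single row 0.67) and -2.21 for Hamp2. Hamp2 was thus 4.63-fold lower after LPS/GalN without TMX, while Hamp differed by less than the row error. This contrast depends on the unequal spread of the arrays: scaled to the same SD, Hamp stood at 1.35 and Hamp2 at -0.34, so Hamp2 was no longer 2-fold lower and Hamp was 2-fold higher. Hamp minus Hamp2 was above 0 either way. The ratio of Hamp2 to the reference in treated TMX-null liver became -1.83 with that scaling.

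Between the treated livers Hamp stood at 3.11, which is 8.64-fold higher in TMX-null than in wild-type liver and rank 23 from the highest of all genes. Hamp2 stood at 0.58 there, about the row error of 0.59. With arrays scaled to the same SD these came to 4.35 and 2.80, which puts Hamp2 past 2-fold as well. The response of TMX-null liver minus that of wild-type liver was 4.38 for Hamp, rank 5 from the highest, and 1.59 for Hamp2, or 6.21 and 4.28 with arrays scaled to the same SD.

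**Figure D2:**
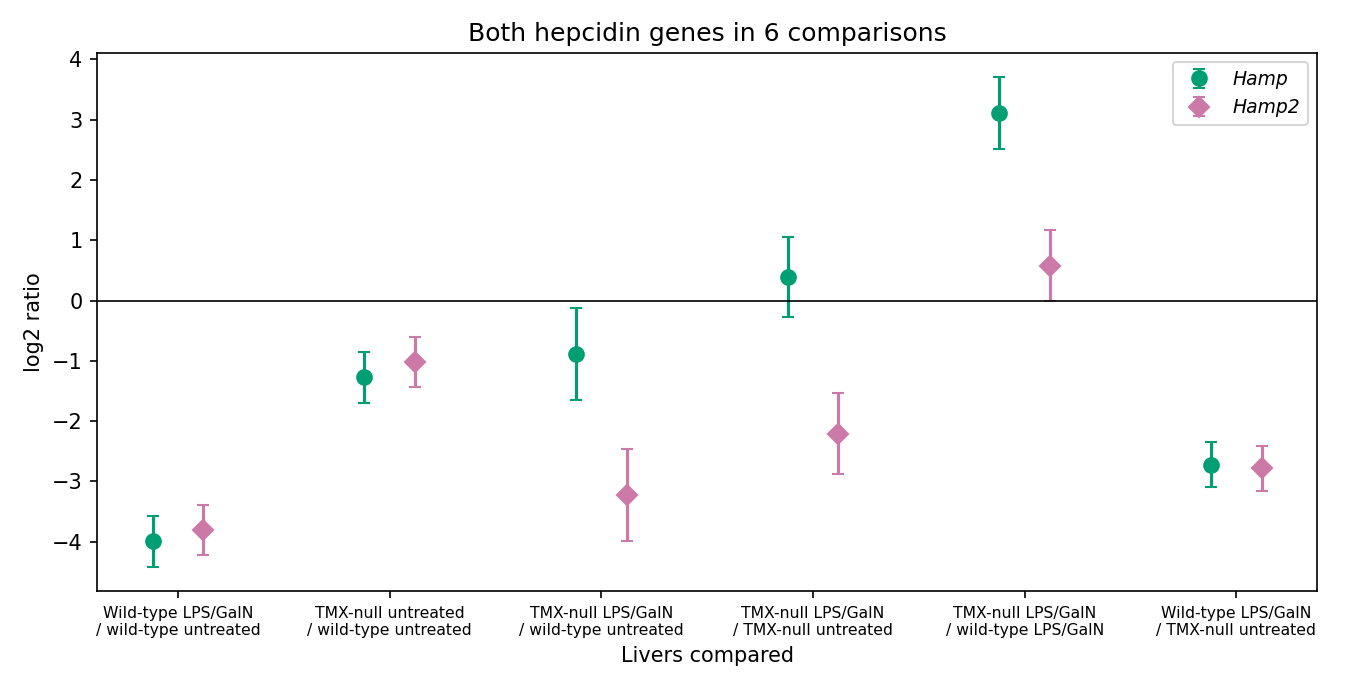
Log2 ratio of Hamp (circles) and Hamp2 (diamonds) in 6 comparisons of livers, each from 1 or 2 arrays; bars are ± 1 SD of a single row, from genes with 2 rows. The genes coincide in 3 comparisons and lie more than 2 log2 units apart in the 3 that involve treated TMX-null liver.

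Hepcidin is made by hepatocytes, so hepatocyte markers are given beside it. Markers and list genes are counted as measured where they had a value on all 3 arrays. Of 10 markers 8 were measured, and their median was -0.22, -0.41 and -1.83 in treated wild-type, untreated TMX-null and treated TMX-null liver, with 3, 0 and 6 genes at least 2-fold lower, against 1.75%, 0.835% and 13.2% of all genes. Their lowest gene was Cyp2e1, at -1.54 (treated wild-type) and -4.47 (treated TMX-null). Hamp therefore lay below all 8 in treated wild-type liver, and above their median in treated TMX-null liver. Hamp2 also lay below all 8 in treated wild-type liver (-3.80), but below their median in treated TMX-null liver (-3.23). Fewer hepatocytes and less RNA per hepatocyte cannot be told apart in bulk liver, and the part of either in the hepcidin ratios was not tested. Ratios cannot show which cell types were present, so the liver label was not checked against levels.

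Across the 10 genes, 4 were at least 2-fold from the reference in treated wild-type liver, 3 lower and 1 higher, where 4.55% of all genes were (1.75% lower and 2.8% higher). Untreated TMX-null liver had 2, both lower, against 2.61% of all genes (0.835% lower and 1.78% higher). Treated TMX-null liver had 6, 3 higher and 3 lower, against 26.8% (13.6% higher and 13.2% lower). Since these ratios were known when the genes were chosen, nothing is read from the counts. Between arrays, 2 of the 10 genes were higher (Id1, Tfrc) and 2 lower (Hamp2, Tfr2) in treated than in untreated TMX-null liver, against 11.4% and 12.1% of all genes (23.5% in all). With treated TMX-null liver set against that of the treated wild type, 3 were higher (Hamp, Id1, Smad7) and 1 lower (Tfr2), against 9.64% and 10.6% (20.3% in all). In treated wild-type against untreated TMX-null liver 1 was higher (Tfrc) and 3 lower (Hamp, Hamp2, Smad7), against 2.08% and 1.98% (4.07% in all). The difference of the responses was at 2-fold for 5 genes, 4 positive (Hamp, Hamp2, Id1, Fth1) and 1 negative (Tfr2), against 9.82% and 11.6% (21.4% in all). The median over the 10 genes on the arrays was -0.35, -0.19 and -0.13, where the median over all genes is 0 by centring.

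**Figure D3:**
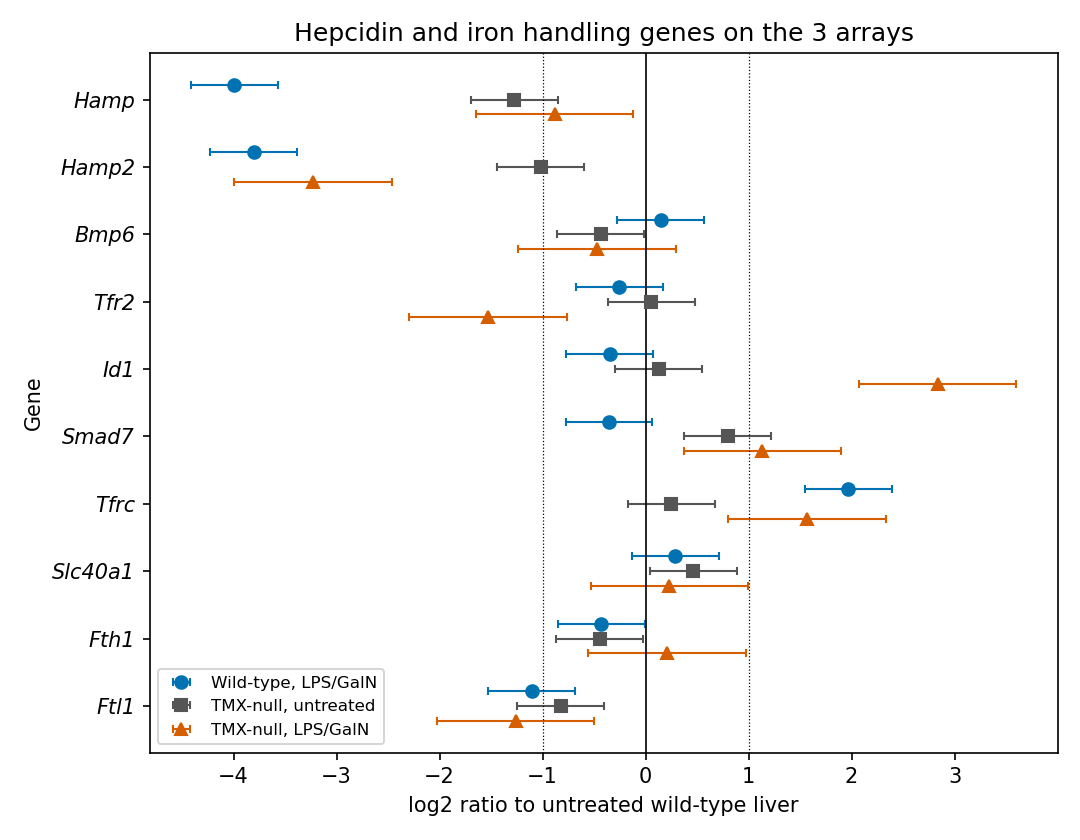
Log2 ratio of each of the 10 genes to untreated wild-type liver on the 3 arrays (circles, wild-type LPS/GalN; squares, TMX-null untreated; triangles, TMX-null LPS/GalN); bars are ± 1 SD of a single row and dotted lines mark 2-fold. Hamp and Hamp2 lie to the left on the wild-type LPS/GalN array, Tfrc to the right on both treated arrays, and Id1 to the right in treated TMX-null liver alone.

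The message of Bmp6, 1 ligand upstream of hepcidin, was near the reference, and the signal itself was not measured. Bmp6 stood at 0.15 in treated wild-type, -0.44 in untreated TMX-null and -0.47 in treated TMX-null liver. These ratios lay near or within the row error and on both sides of 0. Markers of sinusoidal endothelium, the main source of BMP6, had medians of 0.07, 0.03 and 0.50 over 8 of 10 genes, with 0, 0 and 2 at least 2-fold higher and none lower, against 2.8%, 1.78% and 13.6% of all genes higher. In treated TMX-null liver 6 of the 8 were above 0, from Lyve1 (1.72) and Pecam1 (1.37) at the high end to Kdr (-0.60) at the low end.

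Tfr2 encodes transferrin receptor 2, a hepatocyte sensor of iron-loaded transferrin that acts on hepcidin. It stood at -0.25 in treated wild-type and 0.06 in untreated TMX-null liver, and at -1.53 in treated TMX-null liver. The first pair of ratios lay within the row error, and the last was 2.89-fold lower. Against untreated TMX-null liver Tfr2 stood at -1.59 and against treated wild-type liver at -1.28. With arrays scaled to the same SD these came to -0.87, -0.95 and -0.56, none of them at 2-fold. It lay close to the hepatocyte median of -1.83 on that array.

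Id1, an inhibitor of DNA binding whose gene is a direct target of BMP and SMAD, had the highest ratio of the 10 genes. It stood at -0.35 in treated wild-type, 0.13 in untreated TMX-null and 2.83 ± 0.76 in treated TMX-null liver. Only the last lay outside the row error, at 7.13-fold above the reference and rank 81 from the highest. Treated TMX-null liver exceeded untreated TMX-null liver by 2.71 (6.54-fold) and treated wild-type liver by 3.18 (9.08-fold). With arrays scaled to the same SD the ratio to the reference was 1.60. Measured markers of neutrophils and monocytes, apart from Ly6g, were high on the same array. Of 8 neutrophil markers 4 were measured, with medians of 0.26, -0.19 and 3.16 on the 3 arrays. At least 2-fold higher were 1, 0 and 3 of them, against 2.8%, 1.78% and 13.6% of all genes. In treated TMX-null liver S100a9 stood at 4.45. Ly6g, which defines neutrophils, was the 1 marker lower there, at -2.50, where 13.2% of all genes were lower. Of 6 monocyte markers 2 were measured, with medians of 0.81, 1.01 and 4.27, led by S100a4 at 5.45. Of these, 0, 1 and 2 were higher, against the same shares of all genes. The part of these cells in the ratios of Id1 and of the genes below that were high in treated TMX-null liver was not tested.

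Smad7 encodes an inhibitory SMAD that is itself induced by the pathway. It stood at -0.36, 0.80 and 1.13 in treated wild-type, untreated TMX-null and treated TMX-null liver. Both TMX-null livers were above treated wild-type liver, by 1.49 in the treated and 1.15 in the untreated case. Within TMX-null liver the difference with treatment was 0.34, which turned to -0.52 with arrays scaled to the same SD. That scaling put the ratios to the reference at 1.16 in untreated and 0.64 in treated TMX-null liver, so the call at 2-fold moved from the treated to the untreated array.

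Id1 and Hamp, which both respond to BMP, did not share a pattern. In treated wild-type liver Hamp was at its lowest while Id1 and Smad7 stood at -0.35 and -0.36, both within the row error of 0.42. In treated TMX-null liver Id1 was high while Hamp lay at -0.88.

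The wider BMP and SMAD list held 31 further genes, of which 23 were measured on all 3 arrays. None was 2-fold from the reference in treated wild-type liver, 1 was lower in untreated TMX-null liver, and 1 was higher and 2 lower in treated TMX-null liver, against 4.55%, 2.61% and 26.8% of all genes. Their medians were 0.01, -0.06 and -0.11. Hjv, the BMP co-receptor hemojuvelin, stood at 0.14, -0.09 and -1.43 in treated wild-type, untreated TMX-null and treated TMX-null liver. Tmprss6, the protease that cleaves hemojuvelin, stood at -0.42, -0.21 and -1.53. The co-receptor and its protease were thus low on the same array, that with the widest ratios. Genes of this and the other lists were not scaled to the same SD. Tfr2, also at -1.53 on that array, came to -0.87 with that scaling. Inhbb, which encodes the activin B subunit, was the gene low in untreated TMX-null liver, at -1.04.

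Other Id genes could be set beside Id1. Id2 stood at -0.98 in treated wild-type, -0.31 in untreated TMX-null and 0.77 in treated TMX-null liver. Id3 stood at -0.60 and -0.34 on the first pair of arrays, and was 1.33 higher in treated than in untreated TMX-null liver. Id4 stood at 0.05, -0.01 and 1.37. All 4 Id genes were thus highest in treated TMX-null liver. Atoh8, another target of BMP signals, stood at -0.71, 0.11 and -0.02, and Smad6, the other inhibitory SMAD of this pathway, at -0.03, -0.06 and -0.74.

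The inflammatory arm was represented by 12 of 15 genes, and Il6 had no value on any array. Cebpa, a hepatocyte transcription factor that acts on the hepcidin gene, was the lowest on all 3 arrays, at -1.11, -0.65 and -1.89. Stat3 stood at 0.49, 0.46 and 0.41, each at or near the row error. Socs3, a feedback target of STAT3, stood at -0.56, -0.29 and -0.63, below 0 throughout. Socs1, which encodes another feedback inhibitor of cytokine signals, differed most between the treated livers, at -0.77 in wild-type and 1.31 in TMX-null liver. The list medians were -0.14, -0.17 and 0.47. At 2-fold, Cebpa was the single gene in treated wild-type liver, none was in untreated TMX-null liver, and Cebpa and Socs1 were in treated TMX-null liver. Those are 1, 0 and 2 of 12, against 4.55%, 2.61% and 26.8% of all genes.

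Tfrc, which encodes transferrin receptor 1 and takes up iron-loaded transferrin, was high after treatment in both genotypes. It stood at 1.97 ± 0.42 in treated wild-type, 0.25 ± 0.42 in untreated TMX-null and 1.57 ± 0.76 in treated TMX-null liver. Both treated livers lay above the untreated TMX-null liver, and the untreated one lay within the row error of the reference. In treated wild-type liver Tfrc was 3.92-fold higher and ranked 15 from the highest of all genes; in treated TMX-null liver it was 2.96-fold higher and ranked 572. The excess over untreated TMX-null liver was 1.72 for the treated wild type and 1.32 for the treated TMX-null liver. With arrays scaled to the same SD, the treated TMX-null ratio was 0.89 and its excess over untreated TMX-null liver 0.52, both under 2-fold. The treated livers differed by -0.40 (TMX-null minus wild-type), inside the row error of 0.59, and by -1.51, past 2-fold, with arrays scaled to the same SD.

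Slc40a1 encodes ferroportin, the exporter on which hepcidin acts. It stood at 0.29, 0.46 and 0.23 in treated wild-type, untreated TMX-null and treated TMX-null liver. All 3 ratios were above 0 and near or within the row error, so its message varied far less than that of hepcidin. Macrophages are rich in ferroportin, and 12 of 12 Kupffer cell and macrophage markers were measured, with medians of 1.19, 0.79 and 1.37 and 9, 3 and 9 genes at least 2-fold higher, against 2.8%, 1.78% and 13.6% of all genes. The part of these cells in the ferroportin ratio was not tested.

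Ferritin stores iron in a shell of heavy and light chains. Ftl1, the light chain gene, stood at -1.11 ± 0.42, -0.82 ± 0.42 and -1.26 ± 0.76 in treated wild-type, untreated TMX-null and treated TMX-null liver. It was low on every array and differed little between them, by -0.44 with treatment in TMX-null liver, which turned to 0.49 with arrays scaled to the same SD. Against untreated TMX-null liver, treated wild-type liver stood at -0.28, so its low ratio to the reference was largely shared by the untreated TMX-null liver. A dye or reference effect common to the arrays cannot be told apart from such a shared ratio. With arrays scaled to the same SD, Ftl1 was past 2-fold in untreated (-1.20) and not in treated TMX-null liver (-0.71). Fth1, the heavy chain gene, stood at -0.43, -0.44 and 0.21. It was 0.65 higher in treated than in untreated TMX-null liver, which is within the row error of 0.67. Ferritin genes have many processed pseudogenes, and the probes may not exclude them.

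Further genes of iron uptake, storage and export, 17 of 24 measured, were at least 2-fold higher in 2, 1 and 5 cases on the 3 arrays and lower in 0, 0 and 1, against 2.8%, 1.78% and 13.6% of all genes higher and 1.75%, 0.835% and 13.2% lower. Lcn2, a siderophore-binding acute phase protein, stood at 1.35 in treated wild-type, 0.05 in untreated TMX-null and 2.28 in treated TMX-null liver, and so was high after treatment in both genotypes, as Tfrc was. Neutrophils also make Lcn2, and the median of their markers was 3.16 in treated TMX-null liver. Cp, ceruloplasmin, the plasma ferroxidase, stood at 1.39, 1.28 and 1.04, above the reference on every array, which a dye or reference effect could share. Slc39a14, a carrier of iron that is not bound to transferrin, stood at 0.07, -0.13 and 1.19, and Steap2, a metalloreductase, at 0.50, 0.01 and 1.49. Slc11a1, a metal transporter of macrophage phagosomes, stood at 0.64, 0.33 and 1.22. Transferrin itself, Trf in RefSeq, stood at -0.69, -0.36 and -0.66. The iron regulatory genes Aco1 and Ireb2 stood at 0.12 and 0.05 in treated wild-type liver and at -0.91 and 0.05 in treated TMX-null liver. The list medians were 0.07, -0.01 and 0.03.

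Haem genes, 24 of 28 measured, were low in treated TMX-null liver, with a median of -0.62 against 0.05 in treated wild-type and -0.15 in untreated TMX-null liver. There 7 were at least 2-fold lower and 1 higher, against 13.2% and 13.6% of all genes. Hmox1, haem oxygenase 1, which releases iron from haem, was the high gene at 3.31, and it stood at 0.16 in treated wild-type and 0.21 in untreated TMX-null liver. Alas1, the first enzyme of haem synthesis in liver, stood at -1.74, 0.16 and -1.15, so it was low in both treated livers. Alad (-1.43) and Urod (-1.50), enzymes of the same pathway, and Abcb6 (-1.83), a porphyrin transporter, were low in treated TMX-null liver, as were Tmem14c (-1.38), Slc46a1 (-1.36) and Hpx (-1.30), the plasma haem carrier hemopexin. Hepatocyte markers stood beside them at -1.83, and neither set was scaled to the same SD. Of 10 erythroid markers only 3 were measured, at medians of -0.15, 0.11 and -0.92.

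**Figure D4:**
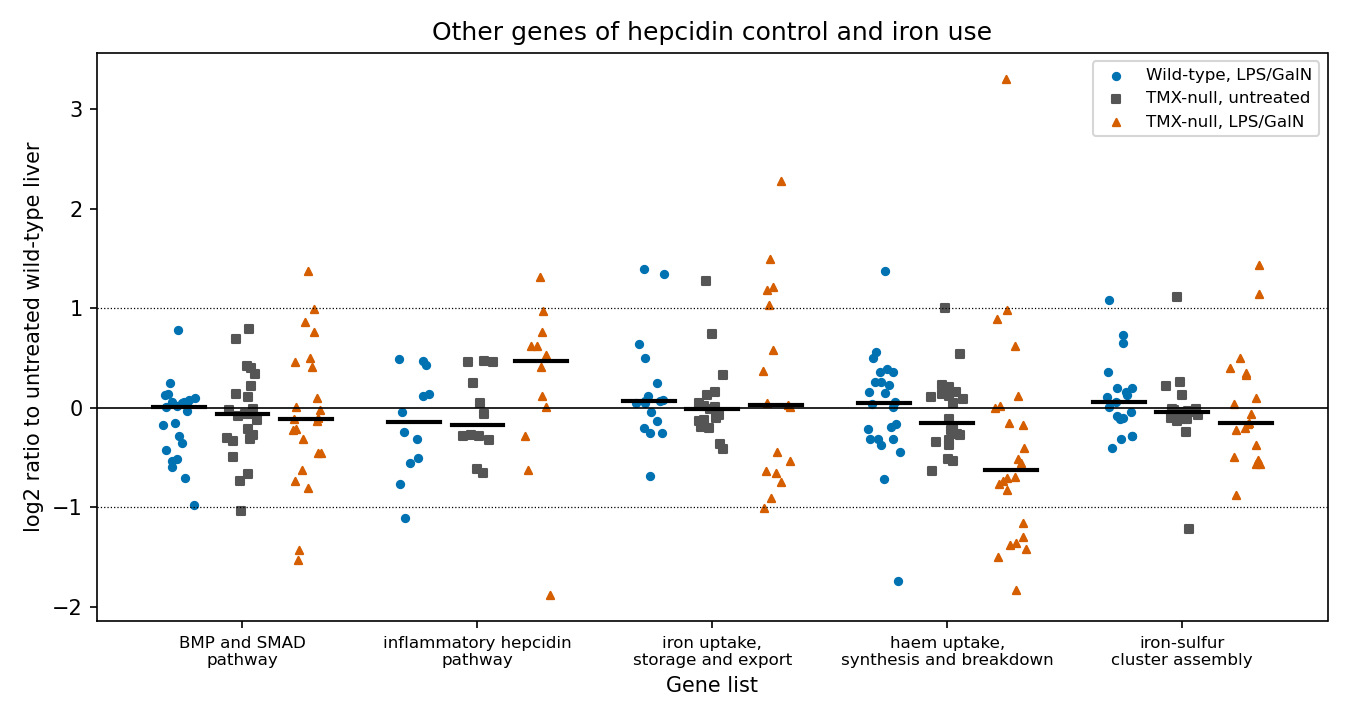
Log2 ratio to untreated wild-type liver of each measured gene of 5 lists on the 3 arrays (circles, wild-type LPS/GalN; squares, TMX-null untreated; triangles, TMX-null LPS/GalN); black bars are medians and dotted lines mark 2-fold. Haem genes have the lowest median, -0.62 in treated TMX-null liver, with Hmox1 far above at 3.31.

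Genes near the mean pattern of Hamp and Hamp2 (-3.90, -1.15 and -2.06) were sought among the 10179 genes, by Euclidean distance over the 3 log2 ratios. In treated TMX-null liver neither gene stood at that mean (Hamp -0.88, Hamp2 -3.23), so the order need not hold for either alone. The nearest were B3gnt4 (0.833), Acot3 (1.37), Cish (1.55), Krtap4-2 (1.67) and Cyp17a1 (1.76). Hamp and Hamp2 themselves were 2.37 apart. B3gnt4 encodes a glycosyltransferase and stood at -3.11, -0.89 and -2.10. Cish, a feedback target of STAT5, stood at -2.39, -1.05 and -1.70. For Id1 the nearest were Haus8 (0.170), Angpt2 (0.263), Cxcl10 (0.276), S100a6 (0.316) and Ccn1 (0.348). With 3 values per gene, nearness says only that the ratios are alike.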

How the data were processed

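The authors deposited 1 table of log ratios for 3 arrays of 2 channels, taken here as log2. Its scale, numerator, background correction and normalization are not stated in the labels, and if the logarithm is natural every fold is to be raised to the power 1.44. Per the labels, RNA was amplified as amino allyl RNA and coupled to Cy3 or Cy5. Of 23473 rows, 16631 had 1 gene symbol in the platform annotation and 6842 had none. Symbols were updated through RefSeq synonyms (GRCm38.p6): 12622 were current, 3947 were renamed and 62 were kept. Rows of a gene valued on all 3 arrays were averaged, and each array was centred on its median over 10179 genes. A gene was counted at 2-fold, a log2 ratio of 1 either way. With 1 array per group no test was run, and precision is limited by this number of arrays. The deposited medians were near 0 and the values ran from -6.40 to 8.04. Array pairs correlated at r = 0.47, 0.52 and 0.40 across genes, which share the reference. The genes and lists were chosen with earlier results of these data known. From each list, some of the genes at 2-fold on an array, of the extremes and of related genes were named, the last after their values were seen. Not every such gene is named. The 5 nearest genes are given for the mean of Hamp and Hamp2 and for Id1. Python 3.11.15 and pandas 2.3.3 were used, and the steps were tested on simulated data.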

Additional observations from a re-analysis of the deposited data

Results flagged for a closer look

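For 6 of the 10 genes the response to LPS/GalN ran in opposite directions in the genotypes, with 1 array behind each value. The difference was not tested. Over all 10179 genes, 36.5% had opposite signs. Hamp stood at -3.99 in wild-type and 0.39 in TMX-null liver, and Id1 at -0.35 and 2.71. Fth1 stood at -0.43 and 0.65, Smad7 at -0.36 and 0.34, Slc40a1 at 0.29 and -0.23, and Bmp6 at 0.15 and -0.036. In the pairs of Fth1, Smad7, Slc40a1 and Bmp6, both values lay within or close to the error of a single row (0.42 and 0.67). In the pairs of Hamp and Id1, 1 value lay within it: 0.39 for Hamp in TMX-null and -0.35 for Id1 in wild-type liver. None of the 6 genes had both values outside that error. With arrays scaled to the same SD, 5 of the 10 genes and 47.9% of all genes had opposite signs: Bmp6 (0.18 and 0.37) and Smad7 (-0.43 and -0.52) no longer did, and Ftl1 (-1.34 and 0.49) did.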

How the results depend on the processing

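With arrays scaled to the same SD, the number of the 10 genes at 2-fold went from 2 to 4 in untreated TMX-null liver (Smad7 and Ftl1 added), from 6 to 2 in treated TMX-null liver (Hamp2 and Id1 stayed), and from 4 to 2 between treated and untreated TMX-null liver (Hamp and Id1). Of 70 values over 7 comparisons, 6 changed sign, none of them at 2-fold, and 20 of 29 calls were kept with 7 gained. Read as natural logarithms, 4 genes were at 2-fold in untreated TMX-null liver. At 1.5-fold in place of 2-fold, 4 genes were called there and 8 in the difference of responses, against 5. The other 43 counts, which include all those with another centring, the first row of a gene or all named genes on the arrays, were within 1.5 times the main count. Of the single ratios, 135 moved by less than the row SD and 15 by more, all 15 under equal SD or natural logarithms, and none at 2-fold changed sign. Which spread is right was not tested, and the genes of the lists and the cell type markers were not rescaled. No paired analysis was possible because each group is 1 array. Without signal or background values, bright and dim genes look alike here.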

Other observations

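Iron-sulfur cluster assembly genes, which use iron in mitochondria and cytosol, had medians close to the reference. Of 23 genes 19 were measured, with medians of 0.06, -0.04 and -0.16 in treated wild-type, untreated TMX-null and treated TMX-null liver. At least 2-fold higher were 1, 1 and 2 of them, against 2.8%, 1.78% and 13.6% of all genes. At least 2-fold lower were 0, 1 and 0, against 1.75%, 0.835% and 13.2%. Nubp1, a cytosolic scaffold, was the highest in both treated livers, at 1.09 and 1.43, and stood at -0.08 in untreated TMX-null liver. Hscb, a co-chaperone of cluster transfer, stood at 0.36, 1.11 and 1.14, and Iba57 at 0.01, -1.22 and -0.57.

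Genes beside the hepcidin pair in RefSeq order did not share its low ratios. Usf2, next to Hamp, stood at -0.15, -0.14 and -0.38, Lsr at 0.44, -0.20 and -0.03, and Mag, next to Hamp2, at -0.52, -0.02 and -0.19.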
